A study of Mus musculus with 10 samples.

Results

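The genes examined here encode the proteasome and the factors that assemble and regulate it. They were taken as the protein-coding genes of the expression table whose mouse symbol starts with Psma, Psmb, Psmc, Psmd, Psme, Psmf or Psmg, and 49 of the 14450 genes in the table met that rule. Of these, 7 encode the alpha ring, 7 the standard beta ring, 5 the immunoproteasome set (Psmb8, Psmb9, Psmb10, Psme1 and Psme2), 6 the ATPases of the regulatory particle and 11 its other subunits. A further 7 are assembly chaperones, 4 are other activators or inhibitors, Psmb11 is the beta subunit of the thymic proteasome, and Psmc3ip, a recombination factor, matches only by its name. The immunoproteasome genes were set against the other 44. No member had a mean under 1 CPM (counts scaled to a common library total). Psmb11 was weakly measured, with the lowest mean, 2.40 CPM, and 1.05 to 4.59 CPM by library. Psmc3ip was next, with a mean of 3.77 CPM.

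The proteasome is a barrel of alpha and beta rings that cuts ubiquitin-tagged proteins into peptides, and a regulatory particle on its end unfolds the protein and feeds it in. Interferons induce Psmb8, Psmb9 and Psmb10, which take the places of the catalytic subunits Psmb5, Psmb6 and Psmb7 in newly built barrels, and they induce Psme1 and Psme2, which form a cap that opens the barrel. Lymphocytes hold immunoproteasomes at rest, and the peptides they make are loaded on MHC class I molecules.

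The libraries hold RNA of mature B cells isolated by FACS out of bone marrow from steady-state Chat-GFP mice, in which GFP reports activity of the choline acetyltransferase gene Chat. Chat+ and Chat- cells gave 5 libraries each, and both groups carry the reporter with no treatment given. The labels give neither age nor sex, and they do not say whether libraries of a group came from separate mice, so p-values measure the spread between these libraries, which may be technical. In sorted bulk cells, fewer cells that express a gene and less RNA per cell cannot be told apart. Chat itself lay at 31.1 to 111 CPM in the Chat+ libraries and at 1.17 to 19.7 CPM in the Chat- libraries.

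The B cell receptor component Cd79a measured 2029 ± 131 CPM in Chat+ and 2188 ± 85.6 in Chat-, and the B lineage factor Pax5 1245 ± 137 and 1346 ± 47.5 CPM (SD, n = 5). Other B cell genes, Cd79b, Ms4a1 and Ighm, were detected in both groups as well. Of 5 T cell markers 1 was in the table, Cd4, at 1.27 CPM or less. Depth estimated from the smallest steps of the values was about 21527000 to 30056000 reads per library. One library stood apart before any proteasome gene was considered: Chat- replicate 4 had 1213 genes at the table's lowest value, against 62 to 682 in the others, and 11.9% of its CPM in mitochondrial transcripts, against 2.27% to 3.85%. Chat+ replicates 3 and 5 followed it in genes at the lowest value, with 682 and 458. Fold changes are given with and without Chat- replicate 4.

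Motif matches upstream of catalytic genes are shown here because interferon-responsive and basal proteasome transcription are known to act through such elements. Windows of 250 bases before the transcription start were found in RefSeq (build GRCm38.p6) for 42 members. Each was searched on both strands for an interferon-stimulated response element, taken as GAAA followed after any pair of bases by GAAA again, the gamma-interferon-activated site TTCNNNGAA, the antioxidant response element core TGACNNNGC used by Nfe2l1 and Nfe2l2, and the CCAAT box bound by NF-Y. Motifs were counted separately, so a base could count under more than 1. Psmb10 had no match, Psmb7 was not among the genes with a window, and the matches found for the other catalytic genes are printed 5′ to 3′ on the gene's strand, with the motif in capitals.
Psmb8, gamma-interferon-activated site, chr17:34198089-34198115, plus strand: cctccgctgTTCCCAGAAgatgccccc
Psmb9, CCAAT box on the opposite strand, chr17:34187331-34187347, minus strand: cagccgctgATTGGaaa
Psmb6, antioxidant response element core, chr11:70525339-70525356, plus strand: taaagagagTGACGGAGC
Psmb5, upstream sequence outside annotated exons with its antioxidant response element core, chr14:54618023-54618245, minus strand: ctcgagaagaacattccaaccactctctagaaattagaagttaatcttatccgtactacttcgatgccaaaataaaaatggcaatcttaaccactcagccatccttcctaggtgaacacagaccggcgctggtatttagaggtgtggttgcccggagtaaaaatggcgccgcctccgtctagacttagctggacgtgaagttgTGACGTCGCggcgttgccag

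The gamma-interferon-activated site stood in 1 of the 5 immunoproteasome windows (Psmb8), in 1 of the 37 other windows (Psmg1) and in the windows of 8.13% of 27025 RefSeq genes. The antioxidant response element core stood in none of the 5 immunoproteasome windows and in 5 of the other 37 (13.5%; Psmb5, Psmb6, Psmc6, Psmd12 and Psmd9), against 11.5% of all genes. The interferon-stimulated response element was in no immunoproteasome window and in those of Psmb3, Psmd4 and Psmd9 (8.11% of 37), against 3.46% of all genes, and CCAAT was in 1 of 5 and 14 of 37 (37.8%), against 37.5%. The windows of Psmb8 and Psmb9 lie wholly within annotated exons, those of Psmb9 in part within exons of Tap1. A match or its absence describes these letters in these windows.

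No proteasome gene differed between Chat+ and Chat- B cells past the adjusted threshold of 0.05. In a limma fit over all 14450 genes with Benjamini-Hochberg adjustment, 0 of 49 members were called, and the lowest adjusted p among them was 0.999. The same fit called 0.00692% of all genes, which is 1 gene, lower in Chat+. Chat itself, with a log2 fold change of 3.64 ± 0.59, was not called (limma adjusted p = 0.0872). A gene left uncalled by this fit can thus still differ between the groups. At an unadjusted limma p under 0.05, 1 member was found, Psmc2, against 4.51% of all genes. Fitted log2 fold changes were above 0, that is higher in Chat+, for 41 of the 49 (83.7%), against 57.0% of all genes, and the median log2 fold change of the members was 0.11, against 0.04 for all genes. Without Chat- replicate 4, 27 of 49 were above 0 (55.1%), against 49.6% of all genes, and the medians were 0.01 and -0.00. The count of members at an unadjusted limma p under 0.05 was again 1, against 7.32% of all genes, and none was called, against 0.0415%.

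**Figure D1:**
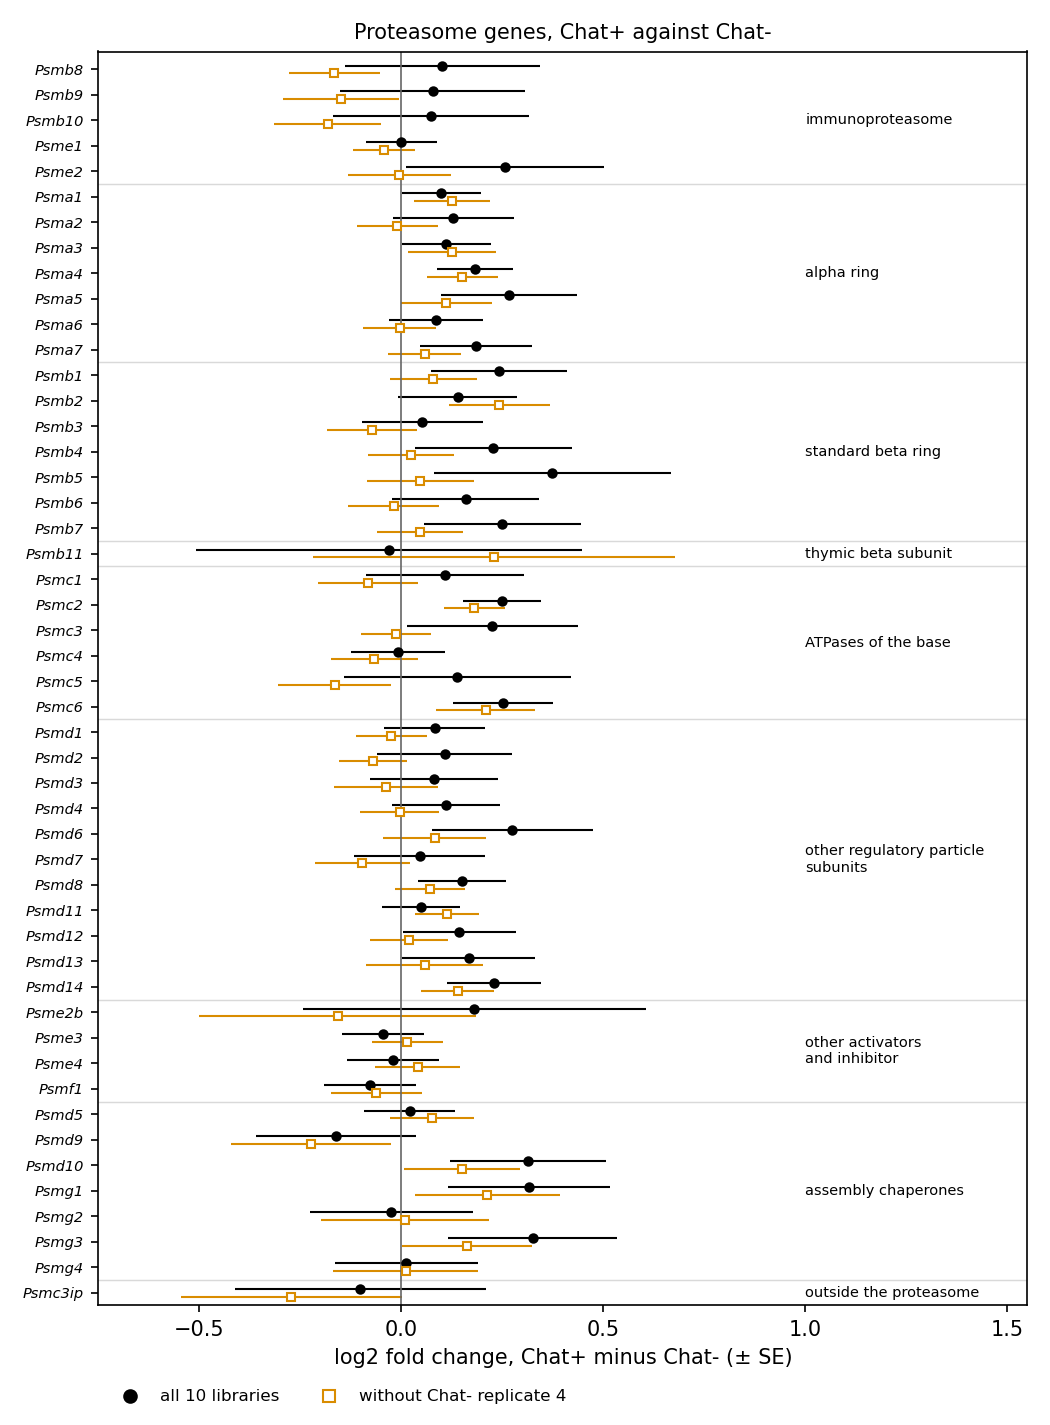
Fitted log2 fold change of each of the 49 genes, Chat+ minus Chat-, with its standard error, grouped by role; filled circles use all 10 libraries and open squares leave out Chat- replicate 4. With all libraries 41 genes lie right of 0, and without that library 27 do, among them none of the 5 immunoproteasome genes.

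The immunoproteasome genes showed no difference between the groups that was larger than the spread between libraries. Psmb8, the interferon-inducible subunit with chymotrypsin-like activity, measured 334.7, 354.1, 238.2, 323.5 and 288.7 CPM in Chat+ replicates 1 to 5 and 359.4, 323.8, 329.1, 135.3 and 357.5 CPM in Chat- replicates 1 to 5. The Chat- libraries other than replicate 4 lay at 323.8 to 359.4 CPM, interleaved with the higher Chat+ libraries, and that replicate lay far below all other libraries. The fitted log2 fold change was 0.10 ± 0.24 (SE, n = 5 and 5; limma adjusted p = 0.999), and -0.17 ± 0.11 without Chat- replicate 4, an interval in fold of 0.752 to 1.06.

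Psmb9, which replaces Psmb6 and is encoded head to head with the peptide transporter gene Tap1, measured 143.7, 128, 92.4, 121.4 and 87.5 CPM in Chat+ and 136.4, 127.3, 127.8, 56.9 and 109.4 CPM in Chat-. Psmb10, which replaces Psmb7, measured 116.9, 126.1, 78.9, 105.2 and 86.7 CPM in Chat+ and 122.3, 117.9, 111.7, 47.4 and 107.9 CPM in Chat-. In both genes Chat+ replicates 3 and 5 were the low Chat+ libraries and Chat- replicate 4 was the lowest of all 10. The log2 fold change of Psmb9 was 0.08 ± 0.23 with all libraries and -0.15 ± 0.14 without Chat- replicate 4. For Psmb10 the values were 0.07 ± 0.24 and -0.18 ± 0.13.

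Psme1, the alpha subunit of the interferon-inducible cap, measured 189.2, 202.1, 172.4, 194.2 and 171.1 CPM in Chat+ and 195.5, 192.4, 188.5, 164.8 and 187.6 CPM in Chat-. It was the steadiest of the set: its fold change had a 95% interval of 0.877 to 1.14, and Chat- replicate 4 kept 86.3% of the mean of the other Chat- libraries. Psme2, the beta subunit of that cap, measured 152, 166.9, 109.9, 129.5 and 147.9 CPM in Chat+ and 169, 128.8, 134.6, 56.5 and 132.3 CPM in Chat-. Its log2 fold change was 0.26 ± 0.24, and -0.01 ± 0.13 without Chat- replicate 4. Psme2 shares 33.5% of its 31-base words with other genes, Psme2b among them, so its reads can be split between gene copies; the sum of both was 160 ± 19.99 CPM in Chat+ against 141 ± 47.1 CPM in Chat- (SD, n = 5), and 161 ± 19.7 CPM in Chat- without replicate 4.

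**Figure D2:**
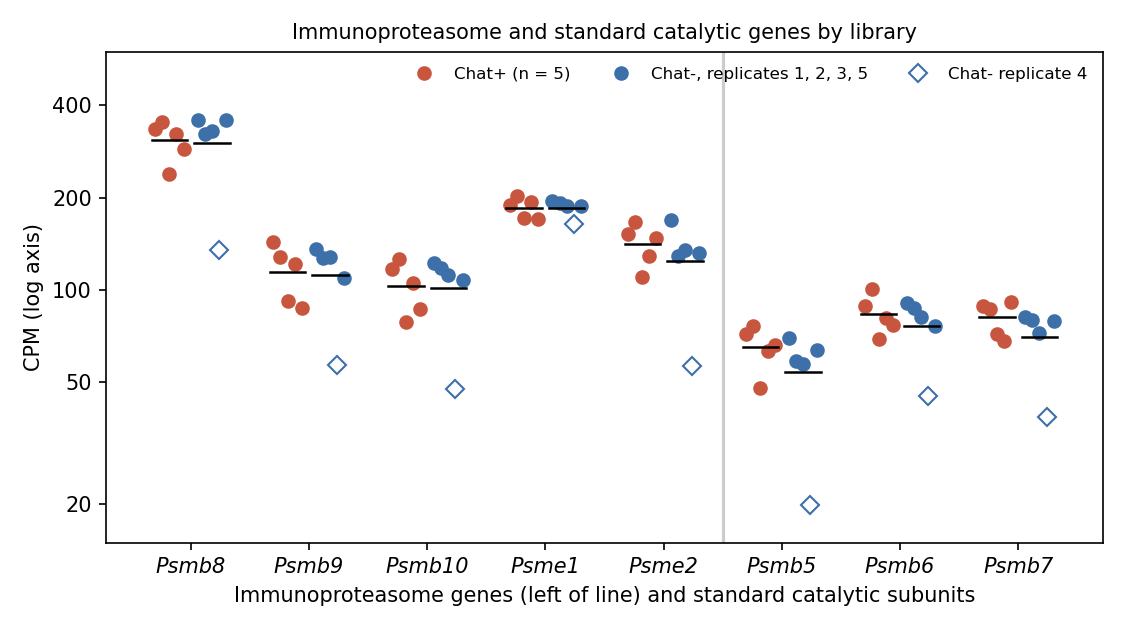
Level of the 5 immunoproteasome genes and of the 3 standard catalytic genes in each library, in CPM on a log axis; points are libraries, black bars are group means and the open diamond is Chat- replicate 4. The diamond is the lowest of 10 libraries for every gene shown, and the other Chat- libraries lie within or close to the Chat+ range.

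As a set, the 5 immunoproteasome genes had a median log2 fold change of 0.08, with all 5 values above 0 (3.94e-05 to 0.26). Without Chat- replicate 4 the median was -0.15 and all 5 were negative (-0.18 to -0.01). The other 44 members had a median of 0.13 with 36 positive, and of 0.03 with 27 positive without that library. The sign of the immunoproteasome median thus changed with 1 library. When Chat+ replicates 3 and 5 were left out along with it, the median was 0.03 for the immunoproteasome genes and 0.04 for the others. The summed level of the 5 genes was 852 ± 116 CPM in Chat+ against 824 ± 207 CPM in Chat- (SD, n = 5), and 915 ± 45.2 CPM in Chat- without replicate 4.

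Pairing each immune subunit with the standard subunit it replaces gives a ratio within each library. The log2 ratio of Psmb8 to Psmb5 was 2.22, 2.22, 2.32, 2.36 and 2.12 in Chat+ replicates 1 to 5 and 2.37, 2.46, 2.52, 2.76 and 2.49 in Chat- replicates 1 to 5. All 5 Chat+ libraries lay below all Chat- libraries, by a narrow margin between 2.36 and 2.37. The difference of the means was -0.27 ± 0.08 (SE, n = 5 and 5), and -0.21 ± 0.05 without Chat- replicate 4, which held the highest ratio. Leaving out Chat+ replicates 3 and 5 as well gave -0.19.

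Whether the groups separated depended on the partner gene. Among the 48 other members as partners of Psmb8, Psmb5 was the 1 whose ratio kept the groups apart with all libraries. Without Chat- replicate 4 there were 3 (Psmb5, Psmd14 and Psmg1). The share over all genes as partners was not computed, so how often such a separation arises is not known. Psmb5 shares 71.7% of its 31-base words with other annotated genes, Gm3375 and Psmb5-ps among them, and 12.1% of its exon bases overlap Mir686. With the reads of Gm3375 added to Psmb5 the difference was -0.29, and all 5 Chat+ libraries again lay below the Chat- libraries. No p-value is given for a ratio picked out of members.

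The other pairs overlapped between the groups. The log2 ratio of Psmb9 to Psmb6 ranged from 0.19 to 0.69 in Chat+ and from 0.34 to 0.64 in Chat-, a difference of -0.08 ± 0.10, and -0.13 ± 0.09 without Chat- replicate 4. The log2 ratio of Psmb10 to Psmb7 ranged from -0.08 to 0.62 in Chat+ and from 0.30 to 0.62 in Chat-, a difference of -0.18 ± 0.14, and -0.23 ± 0.14 without that library. Both low Chat+ extremes came from Chat+ replicate 5.

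**Figure D3:**
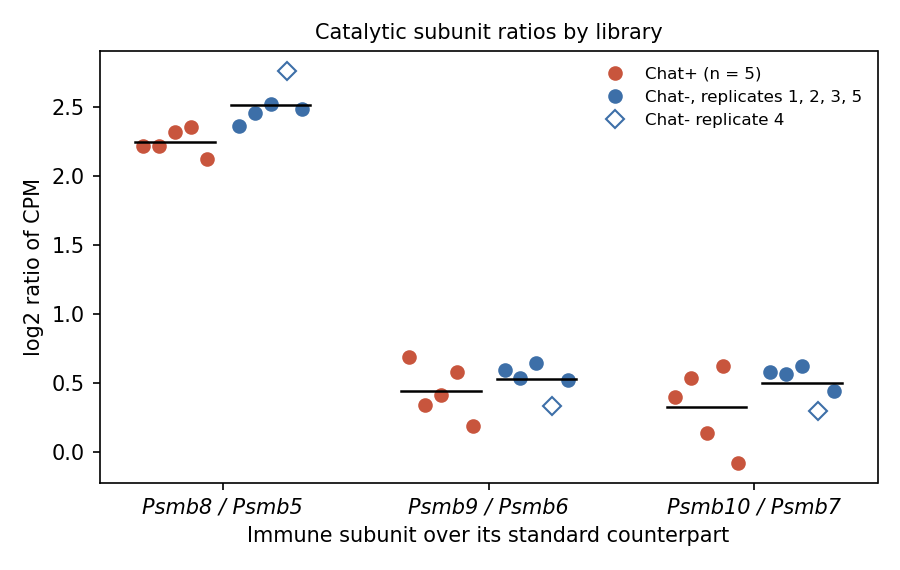
Log2 ratio of the CPM of each immune catalytic gene to that of its standard counterpart in each library; points are libraries, bars are group means and the open diamond is Chat- replicate 4. For Psmb8 to Psmb5 the 5 Chat+ points end at 2.36 and the Chat- points begin at 2.37, and the other pairs overlap.

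Per kilobase, Psmb8 was the most abundant member, at 187 CPM per kb of its longest coding transcript, followed by Psme1 at 167 and Psme2 at 138. Counted over all exon bases of the gene the order was Psmb8 at 90.0, Psme1 at 84.1 and Psma6 at 79.2 CPM per kb. Over the 10 libraries Psmb8 stood at 2.90 ± 0.387 (SD) times Psmb5 per kb of longest coding transcript and at 1.40 ± 0.186 times per kb of all exons. Psmb9 stood below Psmb6 with both lengths, at 0.831 ± 0.0895 and 0.720 ± 0.0775 times. Psmb10 stood at 1.19 ± 0.178 times Psmb7 by the first length and at 2.70 ± 0.403 times by the second, so the size of these ratios depends on the gene model. Psmb11, whose product belongs to cortical thymic epithelium, was the lowest member at 0.565 CPM per kb of longest coding transcript.

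The standard beta ring genes had a median log2 fold change of 0.23, with 7 of 7 above 0 and none called, and of 0.05 with 5 of 7 above 0 without Chat- replicate 4. Psmb5, the chymotrypsin-like standard subunit, measured 71.9, 76.2, 47.7, 63.1 and 66.3 CPM in Chat+ and 69.7, 58.9, 57.3, 19.9 and 63.7 CPM in Chat-. Its log2 fold change of 0.37 ± 0.29 was the largest of all members, and it was 0.05 ± 0.13 without Chat- replicate 4. Outside that library the groups overlapped.

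Psmb6, the caspase-like standard subunit, measured 83.4 ± 12.2 CPM in Chat+ against 76.2 ± 18.3 CPM in Chat- (SD, n = 5). Psmb7, the trypsin-like standard subunit, measured 81.4 ± 10.6 and 70.4 ± 18.1 CPM. Psmb1, a non-catalytic neighbour in the same ring, measured 183 ± 22.9 and 157 ± 36.3 CPM. Their log2 fold changes of 0.16 ± 0.18, 0.25 ± 0.20 and 0.24 ± 0.17 were -0.02, 0.05 and 0.08 without Chat- replicate 4. Psmb2 was the exception in the ring: Chat- replicate 4 held its highest value of 10 libraries, 73.5 CPM, and its log2 fold change went from 0.14 to 0.24 without it.

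The alpha ring, which forms the gated outer faces of the barrel, had a median log2 fold change of 0.13 with 7 of 7 above 0 and none called. Without Chat- replicate 4 the median was 0.11 with 5 of 7 above 0. Psma4 measured 82.7 ± 6.99 CPM in Chat+ against 72.8 ± 4.52 CPM in Chat- (SD, n = 5), a log2 fold change of 0.18 ± 0.09 (limma unadjusted p = 0.0729), and 0.15 ± 0.09 without Chat- replicate 4. Psma5 and Psma7 had log2 fold changes of 0.27 ± 0.17 and 0.19 ± 0.14, which were 0.11 and 0.06 without that library.

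Psma3 carries a copy that changes what its level counts. The processed pseudogene Gm13835 (chr6:31141979-31142663, minus strand) has 100% of its 655 words of 31 bases in Psma3. It was listed at 59.8 ± 4.91 CPM in Chat+ against 55.9 ± 5.12 CPM in Chat-, as high as Psma3 itself at 54.9 ± 5.01 and 50.8 ± 5.52 CPM (SD, n = 5). The sum of both was 115 ± 2.16 CPM in Chat+ against 107 ± 7.19 CPM in Chat-. Psma5 (61.0% of its words shared) has the same limit.

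The ATPases that ring the base of the regulatory particle and thread the substrate in had a median log2 fold change of 0.18, with 5 of 6 above 0, and of -0.04 with 2 of 6 above 0 without Chat- replicate 4. Psmc2 measured 93.4, 90.7, 92.4, 89.1 and 97.6 CPM in Chat+ and 76.5, 83.6, 82.3, 64.5 and 84.4 CPM in Chat-. It was the 1 member of 49 whose Chat+ libraries all lay above its Chat- libraries, which held for 1.12% of all genes. Its log2 fold change was 0.25 ± 0.10 (SE, n = 5 and 5; limma unadjusted p = 0.0235, adjusted p = 0.999), an interval in fold of 1.03 to 1.37.

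Without Chat- replicate 4 the Psmc2 groups still did not overlap, with Chat+ above in 2.35% of all genes, and the log2 fold change was 0.18 ± 0.08 (limma unadjusted p = 0.0342, adjusted p = 0.635). Leaving out Chat+ replicates 3 and 5 as well gave 0.16 (limma adjusted p = 0.723). Psmc6, another of these ATPases, measured 70.2 ± 11.6 CPM in Chat+ against 58.5 ± 5.81 CPM in Chat- (SD, n = 5), with a log2 fold change of 0.25 ± 0.12 and 0.21 ± 0.12 without that library. Psmc3 gave 0.23 ± 0.21 with all libraries and -0.01 ± 0.09 without it.

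The other regulatory particle subunits, which bind ubiquitin chains, remove them and hold the lid together, all had log2 fold changes above 0 (11 of 11, median 0.11), and 6 of 11 (median 0.02) without Chat- replicate 4. None was called. Psmd14, the deubiquitinase of the lid, measured 65.6, 73.2, 65.8, 65.9 and 72.5 CPM in Chat+ and 65.5, 61.9, 55.6, 45.5 and 66.5 CPM in Chat-. The groups overlapped only by Chat- replicate 5. The log2 fold change of Psmd14 was 0.23 ± 0.12 and 0.14 ± 0.09 without Chat- replicate 4. Psmd6 and Psmd8 gave 0.27 ± 0.20 and 0.15 ± 0.11, and 0.08 and 0.07 without it.

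Among the other activators and inhibitors, 1 of 4 lay above 0, and none was called. Psme3, the nuclear cap subunit that interferon does not induce, measured 138 ± 13.8 CPM in Chat+ against 142 ± 15.2 CPM in Chat- (SD, n = 5). Psmf1, an inhibitor of the barrel, measured 32.4 ± 3.10 and 34.2 ± 2.64 CPM. Their log2 fold changes were -0.05 ± 0.10 and -0.08 ± 0.11, and 0.01 and -0.06 without Chat- replicate 4. Psme2b, a copy of Psme2 with 78.4% of its words shared, spread from 5.84 to 28.7 CPM and gave 0.18 ± 0.42, and -0.16 ± 0.34 without that library.

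The assembly chaperones had a median log2 fold change of 0.02, with 5 of 7 above 0, and of 0.07 with 6 of 7 above 0 without Chat- replicate 4. Psmd10, which holds a base ATPase during assembly, measured 34.9, 37.9, 24.6, 29.5 and 28.1 CPM in Chat+ and 27.5, 31.6, 26.7, 15.6 and 25.1 CPM in Chat-, overlapping groups. Its log2 fold change was 0.31 ± 0.19, and those of the ring-assembly chaperones Psmg1 and Psmg3 were 0.32 ± 0.20 and 0.32 ± 0.21. Without Chat- replicate 4 they were 0.15, 0.21 and 0.16. Without Chat+ replicates 3 and 5 and Chat- replicate 4, Psmd10 gave the lowest adjusted p among the members, 0.657 in limma.

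Genes that work with the proteasome showed no called difference either. Of 31 listed assembly, docking, shuttle, ubiquitin and transcription genes 30 were in the table. Fitted log2 fold changes were above 0 for 17 (56.7%), against 57.0% of all genes, and below for 13. Of the list 0 were called, against 0.00692% of all genes. The median over the list was 0.01. Without Chat- replicate 4 it was -0.00 with 15 of 30 above 0 (50%), against 49.6% of all genes. At an unadjusted limma p under 0.05 was 1 gene of the list, against 4.51% of all genes. It was Ecpas, a scaffold that binds the proteasome (limma unadjusted p = 0.0383). Its log2 fold change was 0.23 ± 0.10, and 0.24 ± 0.10 without that library, with 112 ± 13.4 CPM in Chat+ against 95.1 ± 4.95 CPM in Chat- (SD, n = 5). The transcription factors Nfe2l1 and Nfe2l2, which are known to induce proteasome genes, had log2 fold changes of -0.02 ± 0.19 and -0.08 ± 0.12, and of -0.20 ± 0.12 and -0.05 ± 0.12 without Chat- replicate 4.

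Another list held 15 genes of peptide supply and interferon response that are known to be regulated with Psmb8 and Psmb9. Of these, 4 (26.7%) had a fitted log2 fold change above 0, against 57.0% of all genes, and 11 lay below. The median log2 fold change over the list was -0.04, against 0.04 for all genes. None was called with all libraries or without Chat- replicate 4. A fit with a replicate block and without number 4 in both groups called 1, Gbp2, and 89 genes in all. Leaving out Chat- replicate 4 gave 5 of 15 above 0 (33.3%), against 49.6% of all genes, and a median of -0.11. At an unadjusted limma p under 0.05 were 1 of the 15, against 4.51% of all genes, and 2 without that library, against 7.32%. Tap1, the transporter gene beside Psmb9, measured 298 ± 33.0 CPM in Chat+ against 305 ± 56.5 CPM in Chat- (SD, n = 5). Gbp2, an interferon-induced GTPase, measured 42.2 ± 16.6 and 26.1 ± 7.54 CPM, a log2 fold change of 0.67 ± 0.26 (limma unadjusted p = 0.0241, adjusted p = 0.999). It was 0.73 ± 0.27 without Chat- replicate 4 (limma unadjusted p = 0.018). Irf1, which drives interferon-induced transcription of Psmb9 and Tap1, gave -0.17 ± 0.16 (limma unadjusted p = 0.321), and -0.32 ± 0.11 without Chat- replicate 4 (limma unadjusted p = 0.0144). Gbp2 and Irf1 thus had opposite signs in the same libraries.

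Proteasome gene levels also varied between libraries of 1 group. Chat- replicate 4 was the lowest of 10 libraries for 37 of the 49 members and the highest for 5 (Psmb2, Psmb11, Psmd11, Psme3 and Psme4). Its median level was 66.0% of the mean of the other Chat- libraries over the members, and 89.5% over all genes. The immunoproteasome genes stood at 41.2% and the other members at 67.4%. Psme2b at 30.03%, Psmb5 at 32.0% and Psmc5 at 34.6% were the lowest, and 19 members were under 60%.

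**Figure D4:**
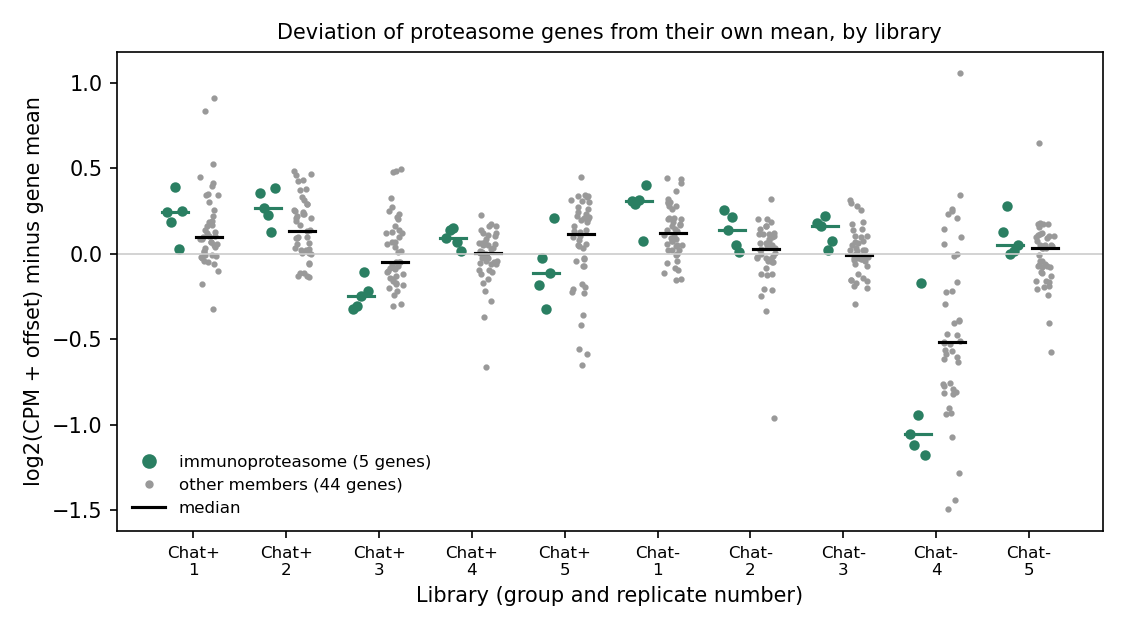
Deviation of each proteasome gene from its own mean over the 10 libraries, on the log2 scale, by library; green points are the 5 immunoproteasome genes, grey points the other 44, and short bars their medians. In Chat- replicate 4 the medians lie at -1.06 and -0.52, and in the other libraries between -0.25 and 0.31.

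The same library differed in transcript length. Its 10 members above the mean of the other Chat- libraries had a median longest coding transcript of 2847 bases, and its 39 below it 1387 bases. Across the 49 genes the Spearman correlation of deviation with that length was 0.39 in Chat- replicate 4. In the other libraries it was -0.28 to 0.14. Across all genes it was 0.18 in Chat- replicate 4, against -0.24 to 0.09 in the other libraries. The correlation with GC content across members was -0.32 in Chat- replicate 4, -0.49 in Chat+ replicate 3 and -0.42 in Chat+ replicate 5, against 0.22 to 0.51 in the other 7 libraries. Across all genes it had the same signs, at -0.28, -0.20 and -0.20 in these 3, against 0.11 to 0.24 in the other 7. These 3 were also the libraries with the most genes at the lowest value. Genes are not independent replicates and share the library, so the correlations are descriptions.

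**Figure D5:**
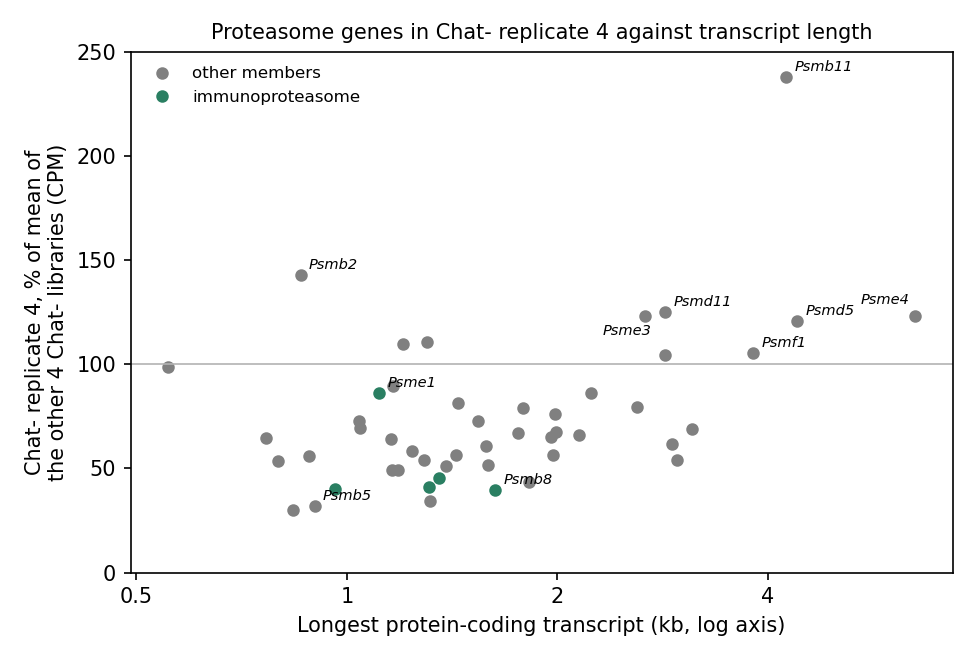
Level of each of the 49 proteasome genes in Chat- replicate 4 as a percent of the mean of the other 4 Chat- libraries, against the length of its longest protein-coding transcript in kb on a log axis; green points are the immunoproteasome genes and the line marks 100%. Psme3, Psmd11, Psmf1, Psmb11, Psmd5 and Psme4 are long transcripts above the line, while Psmd1, Psmd2 and Psma2 are as long and lie below it, and Psmb2, Psma1 and Psmg2 are short ones above it.

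Markers of other cells in that library were mixed. Summed monocyte and macrophage markers (7 of 7 measured) reached 197 CPM in Chat- replicate 4, against 38.2 to 55.6 CPM in the other Chat- libraries and 51.5 to 101 CPM in Chat+. Plasmacytoid dendritic cell markers (4 of 4) summed to 11.7 CPM there, the lowest of 10 libraries, and plasma cell markers (4 of 4) to 102 CPM, also the lowest. Single genes in these sums went both ways. In that library Bst2 (8.87 CPM) and Mzb1 (68.6 CPM) were lowest of 10, while Cox6a2 (1.53 CPM) and Prdm1 (4.41 CPM) were highest. Siglech measured 1.37 ± 0.709 CPM in Chat+ against 4.33 ± 2.14 CPM in Chat- (SD, n = 5). Means of Bst2, Klk1 and Cox6a2 were also lower in Chat+. Plasma cell markers summed to 178 to 427 CPM in Chat+ and 102 to 209 CPM in Chat-. Neutrophil (7 of 7), erythroid (5 of 5) and stromal (6 of 6) markers ranged over 21.8 to 128, 327 to 601 and 269 to 346 CPM in Chat+ and over 43.2 to 104, 293 to 711 and 281 to 398 CPM in Chat-. The 398 CPM was Chat- replicate 4, where the collagen genes Col1a1 and Col1a2 stood at 110.8 and 99.2 CPM, against 7.59 to 12.4 and 7.82 to 12.04 CPM in the other Chat- libraries and 8.40 to 42.4 and 8.16 to 34.02 CPM in Chat+. Most of the stromal sum in every other library was Pecam1, which stood at 177 CPM in Chat- replicate 4. The part of mitochondrial share, transcript length, GC content or these markers in the proteasome values was not tested.

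All members together made up 0.416% ± 0.0245 of the CPM in Chat+ and 0.387% ± 0.0612 in Chat- (SD, n = 5). Without Chat- replicate 4, at 0.280%, the Chat- share was 0.414% ± 0.0146.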

How the data were processed

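The 10 libraries (5 Chat+, 5 Chat-) were grouped by their labels. Per the submitters' processing notes, cutadapt 2.6 trimmed the reads, Salmon 0.14.2 quantified them, and the genome build was GRCm38.p6; the kit is directional per the labels' protocols. The deposited values are log2 of CPM plus an offset, which the values place at 0.115 CPM (3 reads at mean depth); how the authors chose it is not given in the sources used here. Only 38.4% to 52.1% of a library's low values (under 3 CPM) came out as whole read numbers, with a tolerance of 0.01, so no count test was used and depths are estimates. Gene IDs were matched to GENCODE M21, which gave 14391 symbols; 50 protein-coding symbols fit the rule and 49 were in the table. Psma8 and the pathway gene Paaf1 are not analysed here.

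limma 3.58.1 (R 4.3.3; mean-variance trend, two-sided, Benjamini-Hochberg over 14450 genes) compared the groups and was tested on simulated data. The simulated counts were drawn for each gene independently, with no library effect besides depth. They therefore do not cover a shift shared by many genes, such as that of Chat- replicate 4. Intervals are 95%. CPM in the text are the deposited values with the log and offset undone. Lengths and shared sequence (31-base words) came from GENCODE transcripts. The members and lists were chosen with earlier results of these data known. Named genes are the immunoproteasome genes and their counterparts, the 3 members of lowest p in each role, any member or pathway gene at an unadjusted p under 0.05, and members whose groups do not overlap; Psma3, Psma6, Psmb2, Psmb11, Psmc5, Psmd11, Psme4, Gm13835, Gbp2, Chat, Tap1, Irf1, Nfe2l1 and Nfe2l2 were added after their values were seen. Alternatives were another scaling (trimmed mean of M values, or without mitochondrial transcripts), no trend, library weights, a pseudocount of 1 CPM, a minimum mean of 5 CPM, limma-voom, a replicate block and leaving out libraries.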

Additional observations from a re-analysis of the deposited data

Results flagged for a closer look

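In 58 groups of 5 libraries tested (the named members and the summaries by library), 12 held a library far from the other 4, where chance flags about 1 in 20 groups, and 11 of the 12 were Chat- replicate 4. The genes are not independent of each other within that library. It was the low extreme for Psmb8 at 135.3 CPM (others 323.8 to 359.4), Psmb10 at 47.4 CPM (107.9 to 122.3), Psme1 at 164.8 CPM (187.6 to 195.5), Psmb5 at 19.9 CPM (57.3 to 69.7) and Psmb7 at 38.6 CPM (72.5 to 81.7). It was also the low extreme for Psma5 at 40.0 CPM (65.3 to 74.3), Psma7 at 65.8 CPM (96.6 to 108.6), Psmc3 at 54.3 CPM (121.4 to 128.9) and Psmd6 at 28.7 CPM (51.7 to 57.9). The median deviation of the immunoproteasome genes was -1.06 there, and that of the other members -0.52.

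The 1 other case was Psme3, the nuclear activator subunit, whose highest Chat+ value was 161.6 CPM in Chat+ replicate 5, with the other Chat+ libraries at 126.9 to 134.4 CPM.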

How the results depend on the processing

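No alternative called a member: the lowest adjusted p among members ranged from 0.203 (replicate block without number 4) to 1. The labels do not say that replicate numbers pair samples, and the correlations of same-numbered samples (-0.202 to 0.226) were not all above 0.1, although 3 of 5 numbers matched best with their own, a hint from the data, and the fit with the replicate block gave 41 members higher in Chat+, 1 at an unadjusted p under 0.05 and 0 called. Without number 4 that block gave 3 such members and called 1 peptide supply gene, Gbp2, and 89 genes in all, against 6 without Chat- replicate 4 and no block. Pathway genes at an unadjusted p under 0.05 were 1 in the reported fit, 0 without mitochondrial transcripts in the scaling and with no trend, 2 with library weights, 3 with the block, 4 with the block without number 4, and 2 without Chat+ replicates 3 and 5 and Chat- replicate 4.

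The scaling without mitochondrial transcripts, combined with leaving out Chat- replicate 4, gave 27 members higher in Chat+; that combination, leaving out Chat+ replicates 3 and 5 with Chat- replicate 4, the counts without Psmc3ip and Psme2b, and the other partners of Psmb8 were chosen after seeing the data. The median of all genes shifted from 0.04 to -0.00 with the trimmed mean of M values. Members higher in Chat+ numbered 41 in the reported fit, 38 with the trimmed mean scaling and 31 with weights. Members that are not named thus changed sign as well. Among the named members, log2 fold changes that changed sign, none of them called, were as follows. Psme1 was -0.037 with the trimmed mean scaling, -0.0282 without mitochondrial transcripts, -0.000743 with weights, -0.000477 with limma-voom, -0.0593 with the block without number 4 and -0.0427 in the combination. With weights Psmb10 was -0.0772, Psmb8 -0.0432, Psmb9 -0.0358, Psme2b -0.0361 and Psmf1 0.0152. With the block without number 4 Psmb10 was -0.20, Psmb6 -0.0117, Psmb8 -0.19, Psmb9 -0.18, Psmc3 -0.0159, Psme2b -0.16 and Psme3 0.0213. In the combination Psmb10 was -0.18, Psmb6 -0.0193, Psmb8 -0.17, Psmb9 -0.15, Psmc3 -0.0145, Psme2 -0.00551, Psme2b -0.16 and Psme3 0.0143. Without those 3 libraries Psma5 was -0.021, Psmb8 -0.0207, Psme2b -0.35 and Psmf1 0.000514. The cause was not tested.

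With each library left out in turn, members higher in Chat+ ranged from 27 to 43, members at an unadjusted p under 0.05 from 1 to 2, members called stayed at 0, and pathway genes at an unadjusted p under 0.05 ranged from 0 to 4. The immunoproteasome median ranged from -0.15 to 0.17 and that of the other members from 0.03 to 0.17. The ratio differences ranged from -0.31 to -0.21 (Psmb8 to Psmb5), -0.14 to -0.02 (Psmb9 to Psmb6) and -0.25 to -0.08 (Psmb10 to Psmb7). Fold changes ranged for Psmb10 from -0.18 to 0.16, Psmb6 -0.0191 to 0.23, Psmb8 -0.17 to 0.19, Psmb9 -0.15 to 0.17, Psmc3 -0.0143 to 0.30, Psme1 -0.0425 to 0.0291, Psme2 -0.00532 to 0.39, Psme2b -0.16 to 0.51 and Psme3 -0.10 to 0.0145. Depth in reads is an estimate, so counting error could not be separated from the spread between libraries.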
